A study of Mus musculus with 6 samples.

Results

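Pi16-positive adventitial fibroblasts were examined in 10x 3′ single-cell RNA libraries of mouse lung. A deposited barcode was kept with at least 500 genes, at least 1000 UMIs (unique molecular identifiers, each standing for 1 captured RNA molecule) and less than 15% of UMIs from mitochondrial genes, which kept 44096 of 88578 barcodes. Kept cells passed as fibroblasts when at least 2 of the genes Col1a1, Col1a2, Pdgfra and Dcn had a UMI and when Ptprc, Cdh5, Lamp3, Foxj1 and Msln, which mark leukocytes, endothelium, AEC2s (type 2 alveolar epithelial cells), ciliated cells and mesothelium, had none. The members were the gated cells with 2 or more UMIs of Pi16. There were 6113 members among 12450 gated cells, or 49.1%. The 4715 gated cells without a Pi16 UMI were the main comparison, and 1622 cells with exactly 1 Pi16 UMI belonged to neither class. The UMI counts of these 10 genes chose the cells, so their values are given as a description without a test.

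The libraries were made from magnetically enriched CD45-negative lung cells of mice labelled C57BL/6, from lines backcrossed to C57BL/6J, 10 to 12 weeks old, taken 2 weeks after 4 doses of tamoxifen without lung injury. The 2 libraries labelled Zip8 knockout came from mice with an SFTPC-CreER driver, a Rosa26-tdTomato reporter and floxed Slc39a8 (Zip8, a zinc importer). The 4 control libraries came from littermates, and whether these carried the driver or the reporter is not given for these libraries in the sources used here, although control cells for the study's organoid cultures came from mice with both. The SFTPC promoter drives the recombinase in AEC2s, so the fibroblasts are not the cells in which Slc39a8 is deleted. Each library held 93852253 to 118771907 UMIs. No source says how many mice a library holds, so a p-value here measures the spread between libraries. Control replicates 1 to 4 gave 1233, 2023, 1063 and 954 members, and Zip8 knockout replicates 1 and 2 gave 268 and 572. Y-linked Ddx3y was read in the members of every library and Xist was at or near 0, so both groups were male.

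Adventitial fibroblasts lie in the loose connective tissue around the larger blood vessels and airways, whereas alveolar fibroblasts lie in the walls of the gas-exchange region. Pi16 (on chromosome 17, 29317680 to 29330593 in GRCm38/mm10, plus strand) encodes a peptidase inhibitor, a surface glycoprotein, and marks a fibroblast state found in the adventitia and fascia of many organs, often together with Dpp4, Ly6a and Cd34. These cells are known for a matrix rich in collagens and small proteoglycans and for secreting chemokines, BMP and Wnt modulators and growth factor binding proteins.

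Of the 4 genes given as markers, Pi16 and Dcn were set by the rule. Members held a median of 10 to 14 Pi16 UMIs per cell in the 6 libraries, and the summed Pi16 level was 2164, 2062, 2233 and 2076 CPM (the gene's UMIs scaled to the total UMIs of the class) in the control libraries and 1978 and 1494 CPM in the Zip8 knockout libraries. The proteoglycan decorin, Dcn, stood at 14149 ± 1718 CPM (SD, n = 6 libraries) in members. Clec3b, which encodes the plasminogen-binding protein tetranectin, was read in 99.1% ± 0.853 of members. Its level was 5167, 5381, 4949.7 and 4916 CPM in the control libraries and 4119.8 and 4484 CPM in the Zip8 knockout libraries, against 755, 1140.3, 551 and 939.8 CPM and 589 and 1006 CPM in Pi16-negative cells. Every member value lay above every Pi16-negative value, and the log2 difference was 2.37 ± 0.10 (SE, adjusted p = 6.19e-07, edgeR quasi-likelihood F test, adjusted after Benjamini and Hochberg).

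Fibronectin, Fn1, did not set the members apart. It was at 602 to 887 CPM in members and 212 to 1113 CPM in Pi16-negative cells, higher in members in 4 of 6 libraries, with a log2 difference of 0.55 ± 0.25 (edgeR adjusted p = 0.105, 95% interval -0.02 to 1.12). The dipeptidyl peptidase gene Dpp4 did not either: a UMI was read in 7.20% ± 2.79 of members and 8.95% ± 5.22 of Pi16-negative cells, and the levels were 5.92 to 29.1 and 4.50 to 40.3 CPM (log2 difference 0.22, edgeR adjusted p = 0.491). The other fixed adventitial markers, Cd34, Ly6a, Ly6c1, Col14a1, Mfap5, Igfbp6 and Cd248, were all higher in members in 6 of 6 libraries. Of the whole list of 26 tested adventitial genes 21 were higher and none lower, or 18 and none without the cells rich in epithelial RNA described below. Against Pi16-negative cells the label therefore held for Clec3b and these 7 genes and not for Fn1 or Dpp4.

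Pi16 UMIs were also read in cells of other types. In kept cells with 2 or more UMIs of Cdh5, an endothelial cadherin, 2 or more Pi16 UMIs were read in 1.69 to 13.8% of cells across the libraries. The share was 1.50 to 13.5% in cells with 2 or more UMIs of Lamp3 and 2.37 to 14.5% in cells with 2 or more UMIs of Foxj1. Median depths were 3417.5 to 6177 UMIs in the Cdh5 cells, 9575.5 to 14061.5 in the Lamp3 cells and 11536.5 to 17882 in the Foxj1 cells, against 5782 to 10428.5 in gated cells. The share of gated cells with 2 or more Pi16 UMIs was 42.5 to 59.9%, above these shares in every library. The background shares were 2.37 to 14.5% in the 4 control libraries and 1.50 to 7.14% in the 2 Zip8 knockout libraries, with control replicate 4 within the range of the latter.

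Depth differed between the classes too. The median member held 10117, 10305, 10376 and 6814 UMIs in control replicates 1 to 4 and 8076.5 and 11425.5 in Zip8 knockout replicates 1 and 2. The median Pi16-negative cell held 6422, 3423, 3822 and 4615 UMIs in the controls and 7871 and 9544 in the Zip8 knockout libraries. Members were the deeper class in every library. Counts of calls with cells thinned to 2000 UMIs, leaving out shallower cells, or matched on UMIs are therefore given with the limits.

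Secretoglobin and surfactant RNA was present in many gated cells. A cell was called epithelial-rich when 5% or more of its UMIs came from a list of 14 epithelial genes. This held for 472 members (7.72%), 840 cells with 1 Pi16 UMI (51.8%) and 1450 Pi16-negative cells (30.8%). Among members 336 came from control replicate 2 and 95 from control replicate 3, with 27, 7, 3 and 4 in the other libraries. Barcodes were also shared between libraries: 10856 kept cells had a barcode that another library also kept, and control replicates 2 and 3 had 2957 barcodes in common. Of these cells 7469 were the copy with fewer UMIs, at a median of 4.83% of the UMIs of the largest copy, and 392 members were such copies. Results are given with all cells, and for the lists and named genes described below whose calls against Pi16-negative cells changed they are also given without the epithelial-rich cells. That choice was made after the data were seen.

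The 2-UMI threshold cut through a gradient. Among members 741 cells (12.1%) had exactly 2 Pi16 UMIs, 1109 had 3 to 5, 1056 had 6 to 10 and 3207 (52.5%) had more than 10. Just outside the threshold, at 1 UMI, mean Ly6c1 was 43.6 CPM, Cd248 62.1 CPM, Clec3b 1121 CPM and Npnt 262 CPM. Just inside, at 2 UMIs, Ly6c1 was 86.7 CPM, Cd248 101 CPM, Clec3b 2043 CPM and Npnt 167 CPM. Cells above 10 UMIs reached 545 CPM of Ly6c1, 477 CPM of Cd248 and 5698 CPM of Clec3b, while Npnt was 78.7 CPM. Club cell secretoglobin Scgb1a1 was at 210101 CPM in cells without Pi16, 290352 CPM at 1 Pi16 UMI, 160973 CPM at 2 and 8337 CPM above 10 UMIs. The median cell held 2907 to 8726 UMIs across libraries at 2 Pi16 UMIs and 8569 to 13310 above 10, and the part of depth and of epithelial RNA in these steps was not tested.

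**Figure D1:**
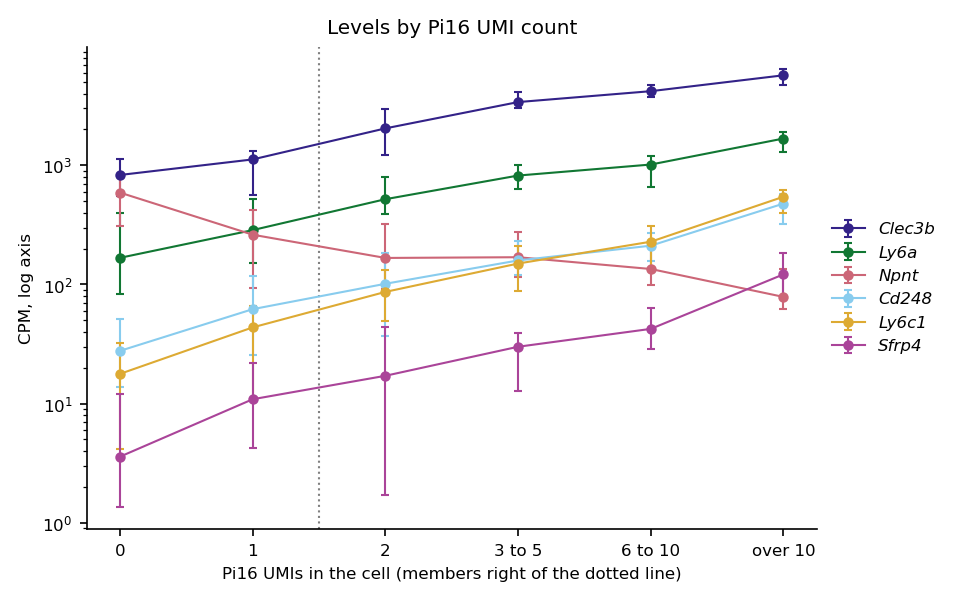
Level of 6 genes in gated cells grouped by their Pi16 UMI count (x axis), as CPM of the summed UMIs on a log axis. Points are means over the 6 libraries and bars run from the lowest to the highest library. Ly6c1, Cd248, Sfrp4, Ly6a and Clec3b were lowest at 0 Pi16 UMIs and highest above 10, and Npnt, an alveolar fibroblast gene, ran from 590.2 CPM to 78.7 CPM.

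The main comparison asked which genes were read at other levels in members than in Pi16-negative gated cells of the same library. Of 12181 genes tested, 556 (4.56%) were higher in members and 1089 (8.94%) lower, at an adjusted p under 0.05 and an absolute log2 difference of at least 1, which is the threshold meant below. Without epithelial-rich cells 453 of 11720 genes (3.87%) were higher and 627 (5.35%) lower. Of the 556 genes 399 were called in both, and of the 1089 genes 495 were, with none in the opposite direction. Without any barcode shared between libraries 445 of 11712 genes were higher and 699 lower. The test measures whether a difference recurs across the 6 libraries, since both classes come from every library.

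Among genes higher in members in all 6 libraries and at 50 CPM or more there, Ly6c1 had the largest difference, followed by Sfrp4, Scara5 and Cd248. Ly6c1, a GPI-anchored Ly6 protein with a near-identical paralog that could take part of its reads, was at 447, 425, 478 and 399 CPM in members of the control libraries and 389 and 265 CPM in those of the Zip8 knockout libraries. In Pi16-negative cells it was at 15.5, 32.3, 21.6 and 23.3 CPM and 4.14 and 9.80 CPM. The classes did not overlap, Zip8 knockout replicate 2 was lowest among members, and the log2 difference was 4.33 ± 0.25 (edgeR adjusted p = 1.94e-06) and 4.72 without epithelial-rich cells.

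Cd248, the stromal receptor endosialin, was at 434, 339, 368 and 385 CPM in control members and 389 and 238 CPM in Zip8 knockout members. Its levels in Pi16-negative cells were 13.7, 27.6, 14.8 and 51.8 CPM and 43.7 and 14.8 CPM. The gap exceeded the spread between libraries, with a log2 difference of 3.63 ± 0.23 (edgeR adjusted p = 2.82e-06).

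Scara5, a ferritin and scavenger receptor, was at 353, 325, 270.4 and 287 CPM in control members and 239.8 and 203 CPM in Zip8 knockout members. Pi16-negative cells held 16.4, 31.2, 12.5 and 24.7 CPM and 14.1 and 6.75 CPM. The difference was 3.86 ± 0.17 on the log2 scale (edgeR adjusted p = 7.34e-07), and its relative Scara3, which protects against oxidants, differed by 3.34 ± 0.21. Of the 23 tested genes for ectoenzymes and surface glycoproteins, 10 were higher and 3 lower, with a median log2 difference of 0.67 against 0.01 over all genes tested. Without epithelial-rich cells the counts were again 10 and 3, with Cd9 in place of Alpl and a median of 0.81. The ATP-hydrolysing ectonucleotidase Entpd2 (320.2 to 464 against 19.5 to 50.8 CPM, log2 difference 3.44), the stem cell antigen Ly6a (997 to 1556 against 83.7 to 397 CPM, 3.04), the sialomucin Cd34 (552 to 767 against 82.2 to 271 CPM, 2.03) and Thy1 (3.09, at 3.27 to 18.9 CPM in members) were higher in all 6 libraries. The neuronal adhesion proteins Lsamp and Opcml, both GPI-anchored, were at 64.8 to 85.2 and 84.03 to 115 CPM in members and differed by 3.53 and 3.37 on the log2 scale.

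**Figure D2:**
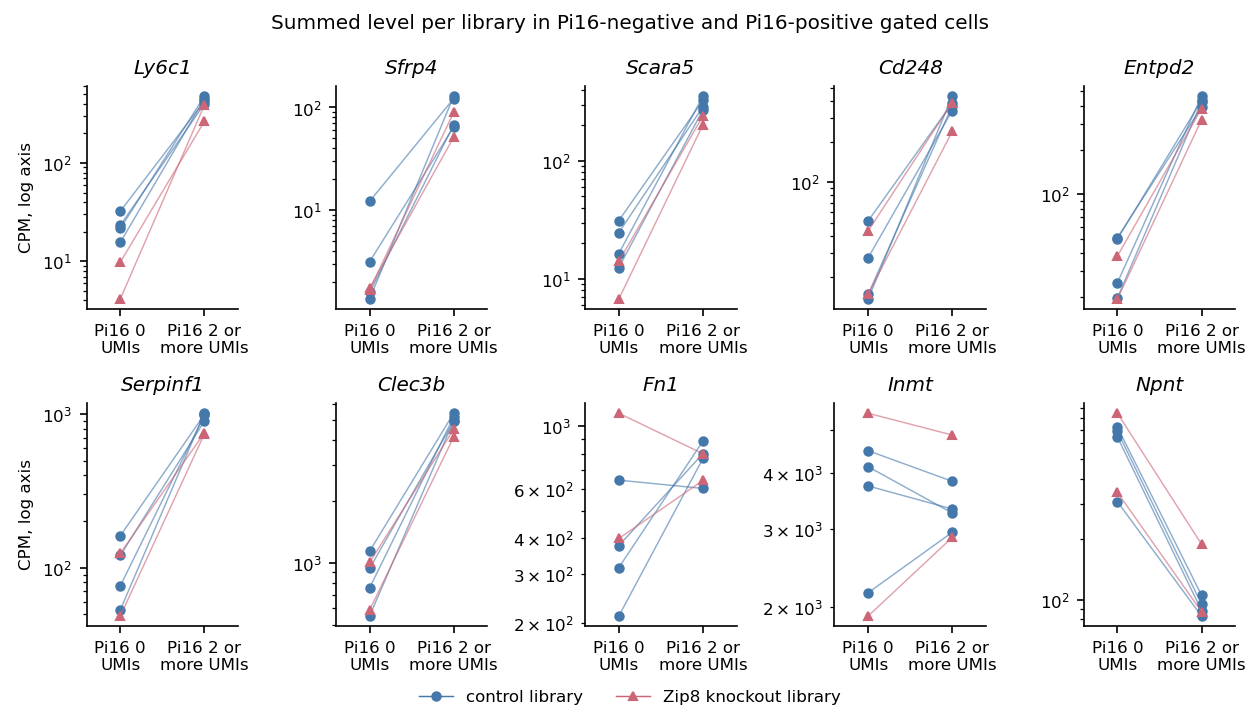
Level of 10 genes per library, as CPM of the UMIs summed over Pi16-negative cells (left in each panel) and over members (right), on log axes that differ between panels. Lines join the classes of 1 library, with blue circles for the 4 control libraries and red triangles for the 2 Zip8 knockout libraries. The first 7 genes were higher in members in all 6 libraries, Fn1 in 4, Inmt in 2 and Npnt in none.

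Among 13 tested fibrillar and associated collagens only Col14a1 and Col5a1 were higher past the threshold and Col6a5 was lower, and without epithelial-rich cells Col5a1 no longer passed. Col14a1, a fibril-associated collagen, was at 867, 764, 722 and 719.9 CPM in control members and 841 and 594 CPM in Zip8 knockout members, against 57.5 to 129 CPM in Pi16-negative cells (log2 difference 2.75 ± 0.10, edgeR adjusted p = 5.34e-07). The genes of collagen III and VI differed less, by 0.93 for Col3a1, 0.31 for Col6a1 and 0.35 for Col6a2. The rule genes Col1a1 and Col1a2, given without a test, were at 2365 and 4167 CPM in members and 787 and 1311 CPM in Pi16-negative cells.

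Among elastic fibre and microfibril genes 7 of 19 tested were higher and none lower, and without epithelial-rich cells 3 were higher and 1 lower. Fibulin 2, Fbln2, was at 173 to 313 CPM in members against 17.2 to 74.3 CPM (log2 difference 2.61, edgeR adjusted p = 5.19e-05), and the elastin interface protein Emilin2 differed by 2.87. Mfap5, a microfibril component and fixed adventitial marker, was at 918 to 1249 against 283 to 472 CPM, a log2 difference of 1.25 that became 0.95 without epithelial-rich cells and so fell under the fold limit. Elastin itself, Eln, was at 532 to 1140 CPM in members and 383 to 787 CPM in Pi16-negative cells, a log2 difference of 0.01 ± 0.09 (edgeR adjusted p = 0.961).

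Of 9 tested small leucine-rich proteoglycan genes, a family that spaces collagen fibrils, 3 were higher and 1, Chad, was lower (-3.47), and without epithelial-rich cells 2 of 8 were higher and none lower. Lumican, Lum, was at 392, 368, 382 and 293 CPM in control members and 239 and 178 CPM in Zip8 knockout members against 28.1 to 70.9 CPM in Pi16-negative cells (log2 difference 2.50 ± 0.20, edgeR adjusted p = 9.27e-06), and podocan, Podn, differed by 1.85. Biglycan (Bgn), osteoglycin (Ogn) and prolargin (Prelp) were not called, with log2 differences of 0.19, -0.03 and -0.08. Of 20 tested matricellular and adhesive glycoprotein genes 9 were higher and none lower, or 7 and none without epithelial-rich cells, led by Tgfbi, a collagen-binding protein (165 to 268 against 13.8 to 42.8 CPM, 2.76), the calcium-binding Smoc2 (138 to 211 against 27.9 to 46.9 CPM, 2.11), Matn2 (2.03) and tenascin X, Tnxb (521 to 768 against 101 to 185 CPM, 1.85). The list median was 0.95, and 0.64 without epithelial-rich cells.

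Hyaluronan genes were higher in 4 of 9 tested and lower in none, with and without epithelial-rich cells. The synthase gene Has1 was at 114, 89.04, 188 and 179.98 CPM in control members and 66.1 and 58.5 CPM in Zip8 knockout members, against 22.98, 15.9, 45.5 and 50.05 CPM and 22.9 and 24.6 CPM in Pi16-negative cells. Among members control replicates 3 and 4 held the most Has1 and both Zip8 knockout libraries the least, and members were higher than Pi16-negative cells in each library (1.72 ± 0.15 on the log2 scale, edgeR adjusted p = 1.65e-05). The other synthase gene Has2 (2.24), the hyaluronan-binding proteoglycan Vcan (1.46) and Itih5, which belongs to a family that binds hyaluronan (2.17), also passed.

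Of 20 tested metalloproteinase and inhibitor genes 9 were higher and 2 lower. The membrane metalloproteinase gene Mmp23 (204 to 288 against 18.7 to 101 CPM, log2 difference 2.29), the ADAMTS-like Adamtsl3 (3.77, at 8.72 to 24.4 CPM), the inhibitor genes Timp1 (1.88) and Timp2 (2275 to 3146 against 501 to 992 CPM, 1.62) and the procollagen proteinase enhancer Pcolce (1.15) were on the higher side. Without epithelial-rich cells 7 were higher and 2 lower, and Pcolce, at 0.85, fell under the fold limit. Adamtsl2 (-2.05) and Timp4 (-2.29) were lower. Serpinf1, the antiangiogenic factor PEDF, was at 1018, 999, 992 and 906 CPM in control members and 759 and 746 CPM in Zip8 knockout members, against 48.2 to 161 CPM in Pi16-negative cells (log2 difference 3.12 ± 0.22, edgeR adjusted p = 5.48e-06).

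Secreted signals were next. Ccl11, the eosinophil chemokine eotaxin, was at 389, 368, 385 and 444 CPM in control members and 289 and 279 CPM in Zip8 knockout members. In Pi16-negative cells it was at 25.96 to 65.3 CPM, and the classes did not overlap (log2 difference 3.04 ± 0.14, edgeR adjusted p = 8.54e-07). Ackr3, a scavenging receptor for Cxcl12, was at 104 to 339 against 6.89 to 24.1 CPM (3.56). Its ligand Cxcl12 was at 322 to 434 against 87.5 to 172 CPM and differed by 1.21, or 0.90 without epithelial-rich cells. The monocyte chemokine Ccl8 (2.62) and the neutrophil chemokine Cxcl1 (1.23, higher in 5 of 6 libraries) also passed, and in total 6 of 20 tested chemokine and cytokine genes were higher and 3 lower, or 5 and 3 without epithelial-rich cells. Il33, an alarmin made by adventitial cells and chosen here after its values were seen, was at 79.1 to 173 CPM in members and 9.14 to 78.4 CPM in Pi16-negative cells (2.29 ± 0.29).

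Among BMP and TGF-beta genes 9 of 22 tested were higher and 2 lower. Besides ligand genes, the higher genes included those of extracellular antagonists: follistatin Fst (28.9 to 50.9 against 3.55 to 14.9 CPM, log2 difference 2.32), chordin Chrd (1.82), Fstl1 (1.37) and Nbl1 (1.10, or 0.79 and under the fold limit without epithelial-rich cells). The BMP modulator gene Bmper was lower, at 0.311 to 1.87 against 2.99 to 9.39 CPM (-2.89). Without epithelial-rich cells 5 were higher and 3 lower.

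Wnt genes divided evenly, with 3 of 19 tested higher and 3 lower, or 3 and 4 without epithelial-rich cells. Sfrp4, a secreted Wnt antagonist, was at 129, 122, 64.5 and 67.8 CPM in control members and 89.6 and 51.4 CPM in Zip8 knockout members. It was read at 1.35, 12.1, 3.12 and 1.56 CPM and 1.66 and 1.72 CPM in Pi16-negative cells, where control replicate 2 held the most. The classes did not overlap, and the log2 difference was 4.29 ± 0.31 (edgeR adjusted p = 5.67e-06). Wnt5a, a noncanonical ligand, was at 83.98 to 135 against 20.7 to 45.6 CPM (1.35), while Wnt4 was lower (14.2 to 60.6 against 30.4 to 237 CPM, -1.54).

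In the IGF axis 4 of 15 tested genes were higher and 1 lower, or 3 and 1 without epithelial-rich cells. The binding protein genes Igfbp4 (2271 to 2689 against 334 to 1034 CPM, log2 difference 1.87) and Igfbp6 (2172 to 2835 against 680.1 to 1448 CPM, 1.33) were higher and Igfbp2 was lower (-3.28). The guidance genes netrin 1, Ntn1 (119 to 143 against 15.8 to 26.4 CPM, 2.56), Sema3c (2.43) and Sema3d (1.56) were higher and Sema3e (-2.03) was lower, so that 6 of 21 semaphorin, netrin and slit genes rose and 3 fell. Without epithelial-rich cells these counts were 5 and 6.

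Transcription factor genes of the EBF family led the next list. Ebf1 was at 298, 258, 235 and 213 CPM in control members and 235 and 174 CPM in Zip8 knockout members, against 11.2, 35.003, 16.5 and 19.1 CPM and 7.74 and 12.98 CPM in Pi16-negative cells (log2 difference 3.60 ± 0.22, edgeR adjusted p = 2.53e-06). Ebf2 was at 49.8, 41.9, 44.1 and 41.7 CPM in control members and 36.3 and 16.2 CPM in Zip8 knockout members. In Pi16-negative cells Ebf2 reached at most 3.65 CPM in any library, and the difference was 4.67 ± 0.31 (edgeR adjusted p = 3.80e-06). The bHLH repressor gene Twist2 (29.9 to 46.2 against 1.32 to 4.54 CPM, 3.40) and Creb5 (49.8 to 100.3 against 4.90 to 14.4 CPM, 2.84) also passed. Of 40 tested mesenchymal transcription factor genes 9 were higher and none lower, and without epithelial-rich cells 9 were higher and 4 lower.

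Of 13 tested retinoid genes 2 were higher and 3 lower, or 3 and 1 without epithelial-rich cells, and of 19 lipid genes 3 were higher and 6 lower, or 2 and 3. Aldh1a3, a retinoic acid synthesis enzyme, was at 16.97 to 41.8 CPM in members against 1.18 to 3.37 CPM (log2 difference 3.54), and Aldh1a2 was also higher (1.32, in 5 of 6 libraries). Aldh1a1 was lower at 202 to 408 against 505 to 917 CPM (-1.49, and -0.92 without epithelial-rich cells). The phospholipid transfer protein gene Pltp was higher (538 to 632 against 85.3 to 188 CPM, 1.86), while the fatty acid binding protein gene Fabp4 (-2.45) and the fatty acid receptor gene Cd36 (-2.61) were lower. The value for Cd36 became -0.37 without epithelial-rich cells and no longer passed (adjusted p = 0.117 by edgeR).

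**Figure D3:**
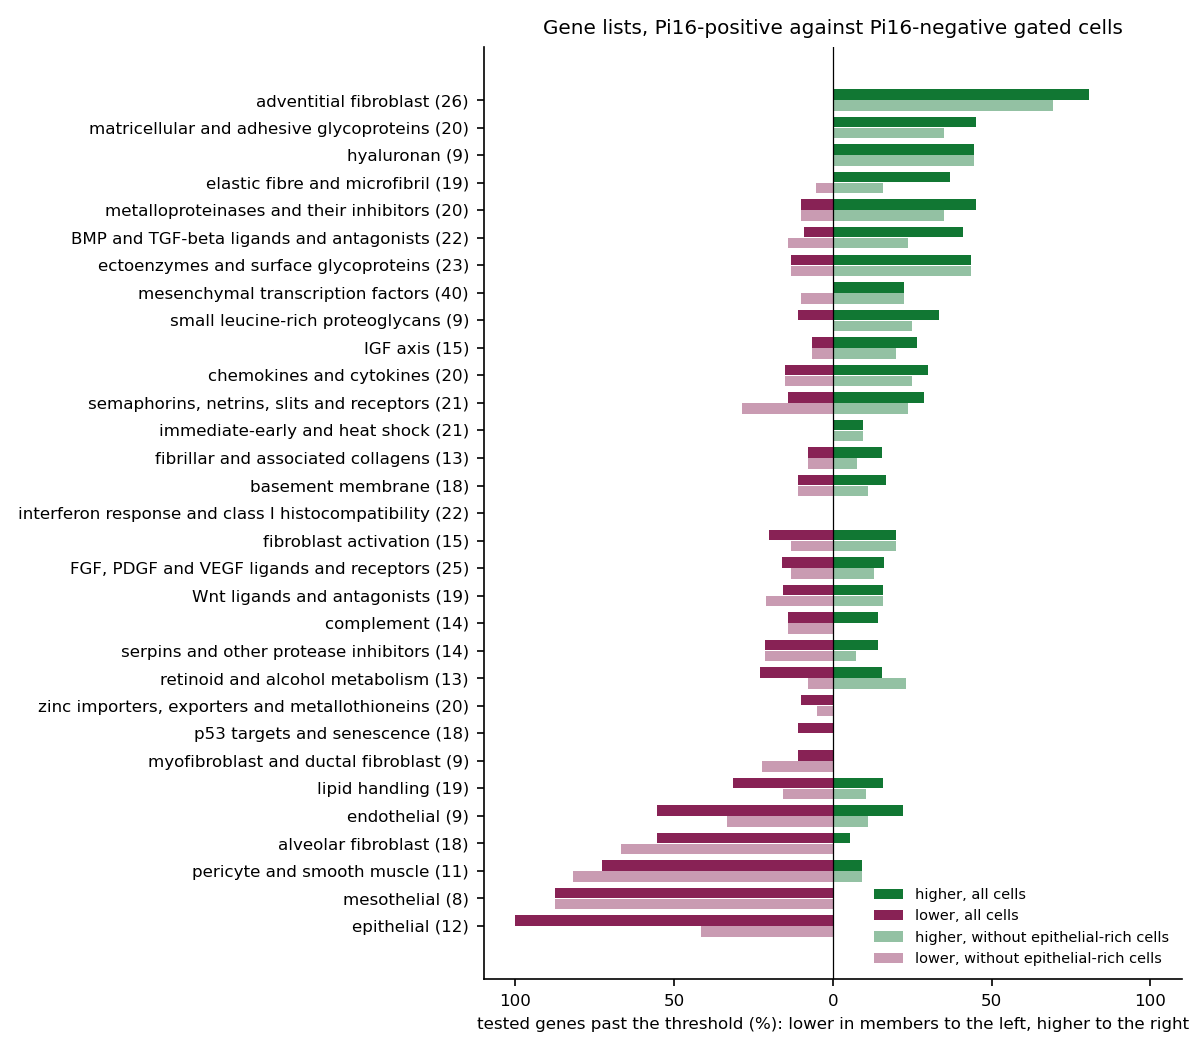
Share of the tested genes of each list that were lower (left) or higher (right) in members than in Pi16-negative cells, with the number of tested genes in brackets. Dark bars use all cells and pale bars leave out cells with 5% or more epithelial UMIs. The adventitial list had 21 of 26 genes higher with all cells and 18 of 26 in the pale bars, with none lower, and the epithelial list had 12 of 12 lower with all cells and 5 of 12 in the pale bars.

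On the lower side the 12 largest differences were Scgb3a1, Scgb3a2, Upk3b, Scube2, Retnla, Muc5b, Pigr, Bpifa1, Tff2, Reg3g, Bpifb1 and Hp. They were taken among genes lower in all 6 libraries and at 50 CPM or more in Pi16-negative cells. Upk3b and Scube2 passed in all 19 alternative settings and the others in 16 or 17. Over these settings Scgb3a1 ran from -4.42 to -0.150 and Bpifb1 from -4.30 to 0.229. Genes of alveolar fibroblasts were lower in members. Npnt, which encodes the basement membrane protein nephronectin, was at 105, 95.1, 82.9 and 88.4 CPM in control members and 87.3 and 189 CPM in Zip8 knockout members. Pi16-negative cells held 719.9, 686, 307 and 643 CPM and 341 and 844 CPM. The classes did not overlap, and Npnt was -2.64 ± 0.12 on the log2 scale (edgeR adjusted p = 8.54e-07), or -2.98 without epithelial-rich cells. The carboxylesterase gene Ces1d (31.2 to 96.4 against 268 to 485 CPM, -2.94), the amino acid transporter gene Slc7a10 (-5.14), the cysteine dioxygenase gene Cdo1 (-2.47), the integrin gene Itga8 (-1.67) and the transmembrane collagen gene Col13a1 (-2.13) were also lower in all 6 libraries. In total, 10 of 18 tested alveolar genes were lower and 1, Gpc3, was higher, and without epithelial-rich cells 12 were lower and none higher. Neither Inmt, a methyltransferase gene (2869 to 4870.4 against 1909.7 to 5452 CPM, -0.19 ± 0.11), nor the transcription factor gene Tcf21 (169 to 229.9 against 99.5 to 249 CPM, 0.08 ± 0.13) passed.

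Contractile and mesothelial genes were lower too. Myh11, the smooth muscle myosin heavy chain, was at 0.227 to 1.84 CPM in members and 14.2 to 56.1 CPM in Pi16-negative cells (log2 difference -5.26), the actin gene Acta2 differed by -1.10 and the actin-binding Tagln by -1.59. The Pi16-negative class thus held cells with contractile RNA, and 8 of 11 pericyte and smooth muscle genes were lower in members (9 without epithelial-rich cells) while 1, Pdgfrb (1.47), was higher. Among mesothelial genes 7 of 8 tested were lower, with a median of -3.44, including the uroplakin genes Upk3b (-3.86) and Upk1b (-4.28) and Lrrn4 (-4.55).

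Epithelial genes were lower in 12 of 12 tested, with a median log2 difference of -2.46. Scgb1a1 was at 27026, 46366, 55386 and 9769 CPM in control members and 8847 and 18073 CPM in Zip8 knockout members. In Pi16-negative cells it was at 230520, 187010, 358420 and 111940 CPM and 206690 and 166030 CPM. Scgb1a1 alone made up most of the summed list, and its log2 difference of -3.39 became -0.20 without epithelial-rich cells. The list median then was -0.20 with 5 of 12 genes lower. The cells left out were chosen by their UMIs of this same list, so smaller differences here were set by the filter and test nothing. The zinc importer gene Slc39a8 was low in both classes. It was at 8.24, 7.61, 9.43 and 7.88 CPM in control members and 7.35 and 6.07 CPM in Zip8 knockout members against 8.21 to 19.6 CPM in Pi16-negative cells (-1.04, edgeR adjusted p = 2.78e-04), and its difference without epithelial-rich cells was -0.51 (edgeR adjusted p = 0.0897). The part of epithelial RNA in either Slc39a8 value was not tested.

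Markers of other lineages were summed in members. The erythroid list summed to 49.9, 915, 44.4 and 3262 CPM in members of control replicates 1 to 4 and to 6.89 and 9.81 CPM in Zip8 knockout replicates 1 and 2, led by Hbb-bs. The Schwann cell list summed to 8.95 to 14.1 CPM with Sox10 at 0, the chondrocyte list to 0.459 to 11.5 CPM with Acan, Col2a1, Col9a2 and Matn1 at 0, and in the immune list, 200.5 to 324 CPM with Lyz2 as its most abundant gene, Cd3e was at 0. The endothelial list summed to a mean of 228 CPM in members and 137 CPM in Pi16-negative cells, and Ramp2, a receptor activity-modifying protein, made up 139 CPM of the sum in members. Ramp2 was higher in members than in Pi16-negative cells (1.68 ± 0.17). Of 9 tested endothelial genes 2 were higher and 5 lower, or 1 and 3 without epithelial-rich cells, and the endothelial genes Cldn5 (-1.37) and Kdr (-2.75) were lower.

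None of 22 tested interferon response and class I histocompatibility genes passed in either direction, and the list median was -0.18. Among 21 immediate-early and heat shock genes, which respond to cell dissociation, Hspa1b (1.00) and Myc (1.24) were higher and none was lower. Fos (2340.2 to 3765 against 1425 to 2990.2 CPM, 0.14) and Jun (0.00) did not pass. Of 18 p53 target and senescence genes 2 were lower and none higher, a share near that of all genes, and without epithelial-rich cells none passed.

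The second comparison set the members against 3071 gated cells without Pi16 but with 2 or more Clec3b UMIs, to ask what set Pi16-positive cells apart from other cells with an adventitial marker. Of 11686 genes 472 (4.04%) were higher in members and 610 (5.22%) lower, and without epithelial-rich cells 483 (4.19%) and 470 (4.07%) of 11536. Several of the genes named above passed again. Log2 differences were 4.26 for Ly6c1, 4.12 for Sfrp4, 3.52 for Scara5, 3.41 for Cd248, 3.39 for Ackr3, 3.39 for Scara3, 3.32 for Ebf1 and 3.14 for Entpd2, each higher in 6 of 6 libraries. Both comparisons share the member libraries, so these values are not independent of those above.

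The Clec3b-positive cells without Pi16 carried more RNA of alveolar fibroblast genes. Npnt was at 993, 864, 575 and 744 CPM in those cells of the control libraries and 761 and 1113 CPM in those of the Zip8 knockout libraries, above every member value given before (log2 difference -3.01 ± 0.09, edgeR adjusted p = 2.03e-08). The sodium channel gene Scn3a (6.41 to 18.1 against 103 to 179 CPM, -3.63), the secreted Scube2 (4.23 to 7.32 against 48.7 to 121 CPM, -4.03) and the transferrin gene Trf (-2.81) were lower in members as well. In total, 12 of 18 alveolar genes were lower and none higher, and 17 of 25 adventitial genes were higher and none lower. RNA of other cell types also moved with this comparison: 7 of 8 mesothelial genes (median -2.86) and 7 of 12 epithelial genes were lower in members, with mean list sums of 59.5 against 387 CPM and 30312 against 83082 CPM, and its part in the other differences was not tested. Clec3b chose these cells and was not tested. Its level was 1379.5 CPM there and 4836 CPM in members. Ductal and myofibroblast genes differed from the first comparison in count, with 4 of 8 tested higher in members, among them Aspn, a proteoglycan gene (1.38), and Hhip, a hedgehog inhibitor gene (1.14).

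The third comparison used 369 gated cells with 2 or more UMIs of Inmt and none of Pi16 or Clec3b. They were shallow, with 1936 to 5956 median UMIs, and 168 of them (45.5%) were epithelial-rich. Their mean Inmt level was 3220 CPM, against 3516 CPM in members. Their alveolar list summed to 8989, 5772, 4402 and 17223 CPM in the controls and 26157 and 4331 CPM in the Zip8 knockout libraries. In members it summed to 7332, 8034, 6899 and 7490 CPM and 8161 and 10543 CPM. This class thus did not hold more alveolar fibroblast RNA than members in every library. Of 9279 genes 955 (10.3%) were higher in members and 657 (7.08%) lower, and without epithelial-rich cells 715 (8.12%) and 388 (4.4%) of 8809. Of the 1612 calls 819 were shared between these fits and 3 had the opposite direction. The counts depended on the scaling and on depth: total UMIs as the scale gave 2394 higher and 326 lower, and cells matched on UMIs gave 322 calls in all. Without Zip8 knockout replicate 1, which held 10 of the Inmt cells, 1110 were higher and 1005 lower. Scara5 (203 to 353 against 0 to 7.48 CPM, log2 difference 5.66, edgeR adjusted p = 5.08e-10) and Cd248 (5.65) were among the genes highest in members, and 23 of 25 adventitial genes were higher with none lower. Fn1 passed in this comparison, higher in members in 5 of 6 libraries (1.26 ± 0.33, edgeR adjusted p = 0.00609), with a value of 0.53 without epithelial-rich cells, under the fold limit. Slc7a10, an alveolar gene, was at 0 to 1.87 CPM in members against 21.4 to 227 CPM (-6.60). All 12 epithelial genes tested were lower in members here too, with a median of -3.47.

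Members were not uniform. A clustering of the 6113 cells, used as a description without a test, gave 9 clusters that are called by number and leading genes. Cluster 2 was the largest, with 1660 cells (27.2%), and was led by Bmp3, Nt5dc2 and the proteoglycan gene Fmod (247 CPM against 26.1 CPM in other members). It held a median of 10 Pi16 UMIs, and Acta2 (244 CPM) was among its leading genes. So were the alveolar fibroblast genes Limch1 (1268 CPM against 171 CPM in other members) and Npnt (242 CPM against 34.3 CPM). Cluster 5, with 1136 cells (18.6%), held the most Pi16, at a median of 32 UMIs, and was led by Efhd1, Sult1e1, Dpp4, Igfbp5 (2338 CPM against 243 CPM) and Ebf2. Dpp4 was at 85.9 CPM in cluster 5 and 3.07 CPM in other members, so the Dpp4 RNA of the members lay mostly in these cells.

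Cluster 1, with 913 cells (14.9%), was led by the deiodinase gene Dio2 (156 CPM against 10.3 CPM), Esm1, Smoc1 and Matn2. Cluster 4, with 789 cells (12.9%), was led by Ccl8, and Timp1 (889.7 CPM against 212 CPM) and the stromelysin gene Mmp3 (2086 CPM against 559 CPM) were among its leading genes. Cluster 3, with 709 cells (11.6%), was shallow at a median of 5162 UMIs and was led by Jchain and Apod, with Lepr, the leptin receptor gene, and Has1 in its list. Cluster 9, with 326 cells (5.33%), was led by Aqp1 (1256 CPM against 16.0 CPM) and Notum, with the retinoid genes Adh7 and Lrat. The small clusters 6, 7 and 8 carried RNA of other cell types. Cluster 7, with 379 cells, was led by Sftpc and Scgb1a1, and 372 of them were lower copies of shared barcodes. Cluster 8, with 191 cells, was led by Cyp2f2 of club cells and held 87 likely doublets, and cluster 6 was 10 cells with Enpp2, Wt1 and Wnt4.

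The clusters took different shares of the libraries. Cluster 2 made up 28.2, 23.3, 24.4 and 25.6% of members in control replicates 1 to 4 and 34.7 and 42.7% in Zip8 knockout replicates 1 and 2. Cluster 5 made up 24.9, 16.1, 22.1 and 19.5% in the controls and 17.2 and 6.47% in the Zip8 knockout libraries. Cluster 7 made up 13.8% of members in control replicate 2 and 7.62% in control replicate 3, and at most 1.14% elsewhere. Both Zip8 knockout libraries thus had the highest share of cluster 2, while for cluster 5 Zip8 knockout replicate 2 was the lowest and replicate 1 lay within the controls.

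The genotype comparison asked how members of the 2 libraries labelled Zip8 knockout differed from those of the 4 control libraries. The targeted gene did not separate the labels. In kept cells with 2 or more Lamp3 UMIs, which are AEC2-type cells, Slc39a8 was at 179.7, 167, 155 and 198 CPM in control replicates 1 to 4 and 167 and 156 CPM in Zip8 knockout replicates 1 and 2. The counts are 3′ tags and the deleted exons are not given in the sources used here, so this level cannot test the deletion. Esr1, chosen after its values were seen and whose ligand-binding sequence is part of CreER, was at 0.592 to 1.31 CPM in those cells of the control libraries and 14.3 and 14.5 CPM in those of the Zip8 knockout libraries, so the labels did separate by reads assigned to Esr1. In members Esr1 was at 3.76 to 5.86 CPM in the controls and 2.30 and 2.02 CPM in the Zip8 knockout libraries, and Slc39a8 was low in all 6 (-0.39 ± 0.19 on the log2 scale, edgeR adjusted p = 0.436).

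At an adjusted p under 0.05, 4 of 12619 genes (0.0317%) were higher and 6 (0.0475%) lower in members of the Zip8 knockout libraries. Ace, the angiotensin-converting enzyme gene, was at 137, 129, 128 and 132 CPM in the controls and 71.2 and 53.9 CPM in the Zip8 knockout libraries. The groups did not overlap, and Ace fell by 1.15 ± 0.10 on the log2 scale (edgeR adjusted p = 0.022). Mt2, which encodes the zinc-binding metallothionein 2, was at 87.7, 121, 123 and 146 CPM in the controls and 42.3 and 41.9 CPM in the Zip8 knockout libraries. Both Zip8 knockout values lay under the lowest control, and the change was -1.54 ± 0.19 (edgeR adjusted p = 0.0456). Mt1, of the same family, was at 339.6, 598, 664 and 772 CPM against 139 and 278 CPM and did not pass (log2 difference -1.53 ± 0.37, edgeR adjusted p = 0.147).

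The integrin alpha 5 gene Itga5, part of the fibronectin receptor, was at 28.96, 29.996, 30.8 and 30.7 CPM in the controls and 16.99 and 15.6 CPM in the Zip8 knockout libraries (change of -0.95). Mat2a, which makes S-adenosylmethionine, was at 328, 339, 373 and 322 CPM against 200.2 and 201 CPM (-0.81). The gap junction gene Gja1 (23.7, 26.6, 24.98 and 30.04 CPM against 14.2 and 12.5 CPM, -1.05) and AI607873 (-1.16) were the other lower genes, with Gja1 named beyond the fixed number. Every one of these groups was apart, with each control above both Zip8 knockout libraries.

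On the higher side, the amino acid transporter gene Slc38a5 was at 37.9, 35.1, 37.6 and 40.6 CPM in the controls and 68.4 and 64.4 CPM in the Zip8 knockout libraries (change of 0.77 ± 0.07, edgeR adjusted p = 0.0251). It was also a leading gene of cluster 2, whose share was highest in these libraries. Acta2, another leading gene of that cluster, was at 112, 108, 109 and 108 CPM in the controls and 58.8 and 80.3 CPM in the Zip8 knockout libraries, lower in both, and did not pass (-0.66 ± 0.12, edgeR adjusted p = 0.0872). The glycogenin gene Gyg (97.02, 94.8, 86.9 and 98.4 CPM against 152 and 189.6 CPM, 0.83), the costimulatory receptor gene Cd40 (17.02, 14.9, 15.1 and 20.7 CPM against 35.4 and 33.2 CPM, 0.98) and the lung mesenchyme transcription factor gene Tbx4 (42.4, 36.7, 35.7 and 48.5 CPM against 75.3 and 72.5 CPM, 0.82) completed the set. Fewer cells of a cluster and less RNA per cell cannot be told apart in such sums.

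**Figure D4:**
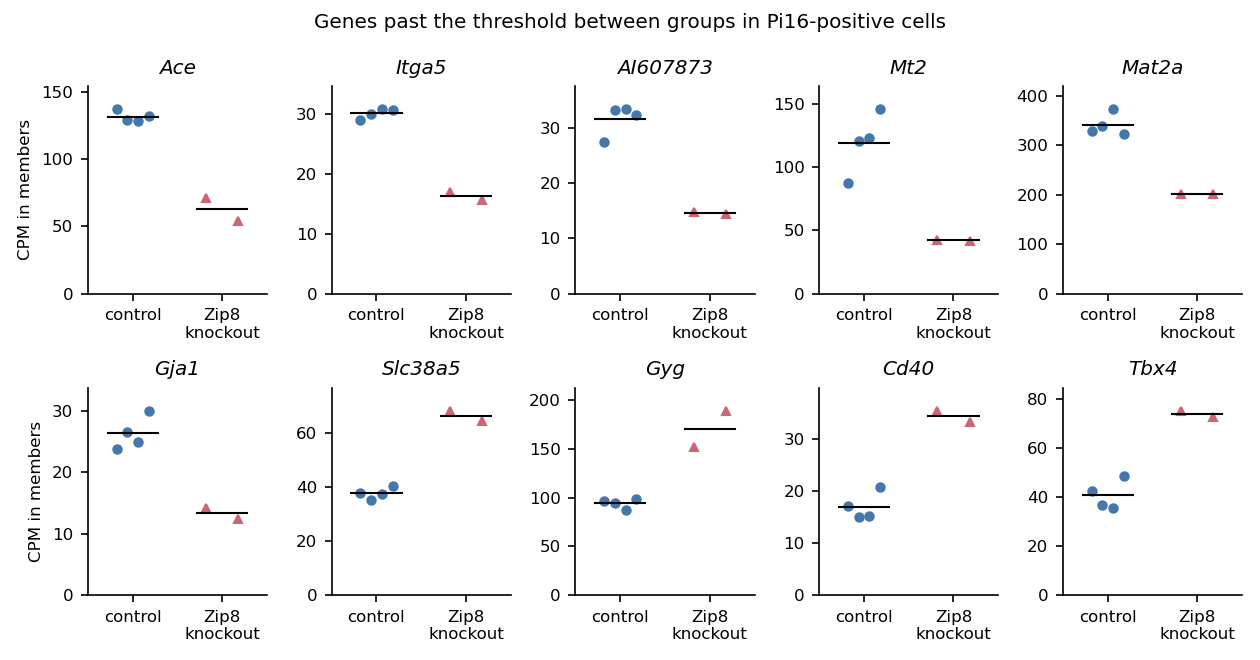
Level in members of the 10 genes past the adjusted p threshold between groups, as CPM of summed UMIs per library (y axes start at 0 and differ between panels). Blue circles are the 4 control libraries, red triangles the 2 Zip8 knockout libraries and black lines the group means. In each panel the 2 groups do not overlap, with the first 6 genes lower and the last 4 higher in the Zip8 knockout libraries.

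These calls depended on the libraries and settings used. Between 0 and 17 genes were called when 1 library was left out, with none without control replicate 2 or control replicate 3, 1 without Zip8 knockout replicate 2 and 17 without control replicate 4. Without a Zip8 knockout library that group is 1 library, assumed to vary like the controls, which alone give the spread. With members at 1 or more Pi16 UMIs no gene was called, without likely doublets 3 were, and DESeq2 called 206. Of 12619 genes 3041 (24.1%) had groups that did not overlap, 1970 (15.6%) of them higher and 1071 (8.49%) lower in the Zip8 knockout libraries, so a lack of overlap alone was common. The genotype difference in members was also compared with that in Pi16-negative cells. None of 13198 genes (0%) passed by edgeR, 451 had an unadjusted p under 0.05 and DESeq2 called 0.

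Marker lists were compared between the groups in the same way. Over all genes tested 8.49% were lower in both Zip8 knockout libraries than in every control and 15.6% higher. Of 26 tested adventitial genes none was called, 9 were lower in both Zip8 knockout libraries than in every control and 2 higher, and the median log2 difference was -0.28 against -0.0013 over all genes. Of 18 alveolar genes none was called, 8 were higher in both Zip8 knockout libraries and none lower, and the median was 0.36. Ly6c1 differed by -0.48 (adjusted p = 0.228), Clec3b by -0.29 (0.229), Has1 by -1.25 (0.153) and Ccl11 by -0.52 (0.0628), the adjusted p by edgeR in brackets, and none of them passed. Pi16 itself, given without a test, was at the level printed above, with Zip8 knockout replicate 2 lowest. Fn1 (-0.14), Col3a1 (0.07), Chil1, a chitinase-like gene (0.42), and the class I gene H2-K1 (0.29) did not pass either, with adjusted p of 0.772, 0.922, 0.408 and 0.413 by edgeR.

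RNA of other cell types was read at other levels in the 2 groups. The shares without overlap over all genes, 8.49% lower and 15.6% higher, stand beside the counts that follow. Hbb-bs was at 29.1, 519, 27.4 and 1977 CPM in members of the controls and 4.59 and 5.29 CPM in those of the Zip8 knockout libraries, with 2 of 4 controls far above the rest, and 4 of 5 erythroid genes were lower in both Zip8 knockout libraries than in every control. Sftpc, a surfactant gene of AEC2s, was at 2094, 1427, 1837 and 2074 CPM against 1039.8 and 738 CPM, lower in both Zip8 knockout libraries than in every control (log2 difference -1.11, edgeR adjusted p = 0.0618). The endothelial list had no called gene, a median log2 difference of -1.05 over 9 tested genes, and 3 genes lower in both Zip8 knockout libraries than in every control with none higher. Its sum was 229, 236, 259.8 and 243 CPM in members of the controls and 218 and 184 CPM in those of the Zip8 knockout libraries. Without epithelial-rich cells 8 genes were called higher and 9 lower, and all 10 genes above were among them. Without shared barcodes 5 were higher and 8 lower, again with these 10 among them. The part of this RNA in the other differences was not tested.

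The share of members among gated cells was 59.9, 46.6, 50 and 47.8% in control replicates 1 to 4 and 42.5 and 44.1% in Zip8 knockout replicates 1 and 2. Both Zip8 knockout libraries lay under every control here, but the groups overlapped with members at 3 or more Pi16 UMIs (difference of -6.00 points, exact permutation p = 0.4). The difference was -14.3 points with members at 1 or more Pi16 UMIs and -15.5 points with a stricter cell filter. In both the groups were apart, with an exact permutation p of 0.0667, the smallest possible over 15 splits. Without control replicate 1 the difference was -4.87 points. The means were 51.1% ± 6.02 (SD, n = 4) and 43.3% ± 1.13 (SD, n = 2), a difference of -7.80 percentage points that did not pass (exact two-sided permutation test over 15 splits, p = 0.2, smallest possible p = 0.0667). Thinning to 2000 UMIs a cell left out shallower gated cells, 185, 907, 197 and 217 in the controls and 48 and 71 in the Zip8 knockout libraries. In the cells that remained the shares were 64.2, 52.99, 53.4 and 51.1% against 44.4 and 45.5% at full depth. Once these cells were thinned the shares were 46.1, 35.9, 38 and 38% in the controls and 32.1 and 27.6% in the Zip8 knockout libraries (p = 0.0667, the smallest this exact permutation test can give). Without epithelial-rich cells they were 66.4, 59.4, 70.9 and 50.7% against 46.7 and 46.1% (exact permutation p = 0.133). Without shared barcodes the means were 60.5% and 46.5% (exact permutation p = 0.133). The background of Pi16 in endothelial and epithelial cells also differed between libraries, as given above, and its part in this difference was not tested.

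**Figure D5:**
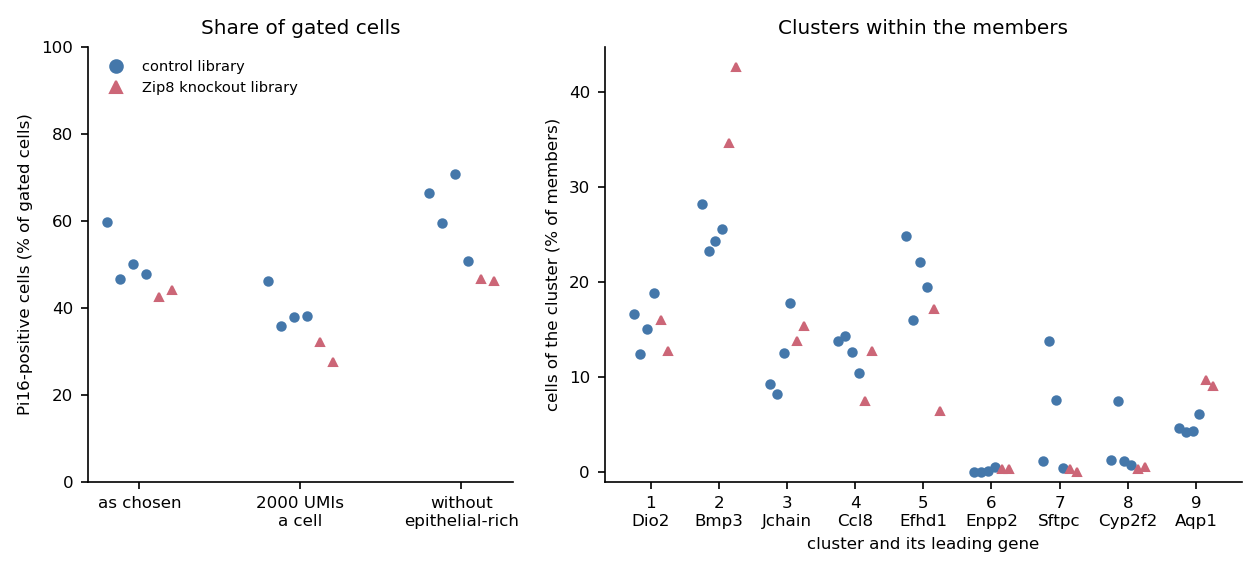
Left, Pi16-positive cells as percent of gated cells per library, as chosen, after thinning to 2000 UMIs a cell with shallower cells left out, and without epithelial-rich cells. Right, share of each cluster in the members of a library. Blue circles are the 4 control libraries and red triangles the 2 Zip8 knockout libraries, which lie lowest in all 3 groups on the left and highest for clusters 2 and 9 on the right.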

How the data were processed

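CD45-negative lung cells from 4 control and 2 Zip8 knockout libraries were profiled by 10x 3′ sequencing. Per the labels and the study's methods the authors made the deposited UMI counts with Cell Ranger (3.1.0 in the matrix headers) against mm10 and used Seurat afterwards. The deposited values are whole, unnormalized UMI counts per gene and barcode.

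Barcodes were filtered and gated as described above, and UMI counts were summed per library and class. The members, the comparisons and the gene lists were chosen with earlier results of these data known. Class comparisons used edgeR 4.0.16 (R 4.3.3) with TMM factors, filterByExpr, library as a block and the quasi-likelihood test. The genotype comparison used the 6 member sums, and the difference between classes an interaction term. P-values were adjusted by Benjamini-Hochberg over all genes tested. A class call needed an adjusted p under 0.05 and an absolute log2 difference of at least 1, and a genotype call the adjusted p alone. DESeq2 1.42.0 was an alternative. Genes were named from the 12 largest differences each way (8 for the Clec3b comparison). These were at 50 CPM or more with the same sign in 6 libraries. Genes also came from up to 4 called and 4 highest genes of each list, up to 5 genotype calls each way, and the fixed markers. Not every gene so chosen is printed. Clusters came from scanpy 1.11.5 (Python 3.11.15) on 1000 variable genes, 15 components and 20 neighbours at resolution 0.5. Doublets were scored with Scrublet at 0.8% per 1000 barcodes and stayed in the main results. They made up 198 members. Of 27998 feature IDs 27645 matched GENCODE vM21, which gave the coordinates.

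The tests were checked on simulated counts. The changed genes were drawn only from genes above a UMI limit, so the shares below do not cover genes with few UMIs. Apart from these changes the simulated mean profile was the same in every library and class, unlike in the data. In members against Pi16-negative cells, with 12282 genes, 88% of genes changed by a log2 of 1 and 100% of those changed by 2 passed the adjusted p, 49% and 100% met the full call rule, and no unchanged gene was called. In the genotype comparison, with 12624 genes, these shares were 74% and 97%, and 13 of 184 calls were unchanged genes. Counting error within 1 library covers sampling only, since its cells share 1 preparation, so the tests used sums per library.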

Additional observations from a re-analysis of the deposited data

How the results depend on the processing

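Members against Pi16-negative cells gave 1645 calls, and 2499 with no filter on low counts, 766 with cells thinned to 2000 UMIs, 927 with cells matched on UMIs and, by a choice made after seeing the data, 1080 without epithelial-rich cells. Without shared barcodes there were 1144. Leaving out 1 library gave 1498 to 1743. Scaling by total UMIs put the median gene at 0.22 and split the calls into 789 higher and 905 lower. The Clec3b comparison gave 1082 calls, 605 when thinned and 989 to 1180 with 1 library left out. The Inmt comparison gave 1612 calls, 2720 with total UMIs (2394 higher, 326 lower, median gene at 0.62), 2823 with no filter, 624 thinned, 322 matched on UMIs and 1441 to 2115 with 1 library left out. Thinned and matched fits hold fewer UMIs. The genotype comparison gave 10 calls, and 206 by DESeq2, 117 with no filter, 0 at Pi16 of 1 or more UMIs and 3 without likely doublets. Alternatives added after seeing the data gave 17 without epithelial-rich cells and 0 with all gated cells, where the log2 difference of Gja1 was 0.0341. Leaving out 1 library gave 0 to 17. With the replicate number as a block there were 291 calls (112 higher, 179 lower), but the numbers pair only 2 libraries of each group. Same-numbered libraries correlated at 0.139 and 0.435, and control replicate 4 with Zip8 knockout replicate 1 at 0.190. With 2 Zip8 knockout libraries each correlation is mirrored in sign, so these values cannot show a pairing, and nothing in the labels ties the numbers. The interaction gave 0 calls by edgeR, 3 with no filter and 0 to 1 with 1 library left out. The share difference of -7.80 points ranged from -9.27 to -4.87 with 1 library left out. The causes were not tested. The 2 Zip8 knockout libraries held 268 and 572 members.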
